A study of Mus musculus with 6 samples.

Results

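Genes of cell division were compared between 3 sorts of mouse retinal cells. The set holds 35 genes, chosen by name for their place in the cell cycle and found through the annotation of the Affymetrix array: 9 genes of DNA replication, 3 cyclins of the G1 phase and 23 genes of the G2 phase and mitosis. Of these, 34 had a probe set of their own among the 18193 genes measured. Ccnb1, the cyclin B1 gene, did not and was not analysed here, which leaves 22 genes of G2 and mitosis. All cells came from retinas of C57BL/6 mice at postnatal day 6. The Hb9 and Drd4 groups hold cells that carried both GFP and Thy1, each from a reporter line named after the gene whose regulatory sequence drives its GFP, and the Thy1 group holds cells stained with an antibody to Thy1, with no GFP marking named for it. Both reporter lines are known for labelling ON-OFF direction-selective ganglion cells, neurons that fire to motion in a preferred direction. Each group has 2 arrays, from separate litters, and RNA of each sort went through 2 rounds of amplification. Thy1 is a surface protein of ganglion cells that other cells of the retina and its vessels can also carry, so the Thy1 group is a sort by one surface protein and not a sort of one cell type.

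A cell copies its DNA once per cycle with a helicase made of the Mcm2 to Mcm7 proteins, a sliding clamp (Pcna) and deoxynucleotides made by ribonucleotide reductase (Rrm1 and Rrm2). Cyclins D and E take it through G1, and cyclins A and B with the kinase Cdk1 take it into mitosis, where Aurora and Polo kinases, kinesins and centromere proteins build the spindle and the Bub proteins hold back anaphase until chromosomes are attached. Ganglion cells are neurons that left the cycle before birth in mice, while microglia, vascular cells, glia and the last retinal progenitors still divide in the first postnatal days.

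Promoters of these genes are known for a small number of shared elements. The CHR (cell cycle genes homology region) is bound by the DREAM and MuvB complexes, often next to CCAAT boxes bound by NF-Y, and marks genes that peak in G2 and mitosis, while E2F sites mark genes of replication. The sequences below show those elements in mitosis and replication genes with a promoter in the RefSeq table. They are the genes with the largest Drd4 minus Thy1 differences among those that hold an element. Mcm4 had no promoter in that table and was not searched. The sequences are the 250 bases before the RefSeq transcription start (mouse build GRCm38.p6), read 5′ to 3′ on the strand of the gene. Matches to the motifs are in capitals. Mki67 lies on the minus strand at chr7:135716380-135716629, Top2a on the minus strand at chr11:99024190-99024439, Rrm2 on the plus strand at chr12:24708004-24708253 and Mcm5 on the plus strand at chr8:75109259-75109508.
Mki67: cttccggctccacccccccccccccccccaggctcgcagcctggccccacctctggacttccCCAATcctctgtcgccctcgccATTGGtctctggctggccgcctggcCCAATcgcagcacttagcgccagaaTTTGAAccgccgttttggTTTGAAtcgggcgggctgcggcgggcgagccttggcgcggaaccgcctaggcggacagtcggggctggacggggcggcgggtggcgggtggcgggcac
Top2a: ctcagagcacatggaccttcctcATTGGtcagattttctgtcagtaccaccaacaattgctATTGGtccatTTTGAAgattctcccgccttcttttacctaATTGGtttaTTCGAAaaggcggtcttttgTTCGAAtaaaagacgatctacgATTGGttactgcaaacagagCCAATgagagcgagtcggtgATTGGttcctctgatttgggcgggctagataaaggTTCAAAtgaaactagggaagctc
Rrm2: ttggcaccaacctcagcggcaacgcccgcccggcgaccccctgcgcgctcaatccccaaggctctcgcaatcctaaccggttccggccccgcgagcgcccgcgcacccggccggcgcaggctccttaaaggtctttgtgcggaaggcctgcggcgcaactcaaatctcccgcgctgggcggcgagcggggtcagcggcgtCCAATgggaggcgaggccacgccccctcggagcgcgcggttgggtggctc
Mcm5: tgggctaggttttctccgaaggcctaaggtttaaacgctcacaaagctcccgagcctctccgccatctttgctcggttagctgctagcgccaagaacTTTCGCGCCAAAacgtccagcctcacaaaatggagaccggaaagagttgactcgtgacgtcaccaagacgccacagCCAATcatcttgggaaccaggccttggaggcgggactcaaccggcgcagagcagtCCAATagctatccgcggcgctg

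The motifs searched were TTTGAA and TTCGAA for the CHR, CCAAT for the NF-Y box, and TTTCCCGC, TTTGGCGC, TTTCGCGC and TTTGCCGC for E2F, all on both strands. In Mki67 the CHR matches span positions -116 to -111 and -98 to -93 from the start, with 3 CCAAT boxes upstream of them. Top2a held 4 CHR matches and 6 CCAAT boxes, of which the nearest CHR spans -23 to -18. Rrm2 held a single CCAAT box, at -50 to -46. In Mcm5 the capitals TTTCGCGCCAAA are 2 E2F matches that overlap and are read on opposite strands. In the full 300 bases of the RefSeq promoter table (250 before and 50 after the start), a CHR match stood in 16 of 20 promoters of the mitosis genes, in 2 of 9 of the replication genes and in 19.2% of all 32851 promoters. A CCAAT box stood in 18 of 20, in 9 of 9 and in 37.4% of all. An E2F match stood in 1 of 20, in 4 of 9 and in 2.26% of all. The table held a promoter for 28 of the 35 genes. These letter matches describe the sequence and say nothing of binding in these cells.

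Levels are log2 of the deposited intensity. As a reference for background, each array's highest of 27 control probe sets for genes of the bacterium Bacillus subtilis was used, which lay between 4.95 and 5.38 on the 6 arrays; a value above it is called above the reference. Array medians ran from 45.5 to 47.7 in intensity. Differences are from limma, fitted over all 18193 genes and all 6 arrays with Benjamini-Hochberg adjustment over all genes at a threshold of 0.05, and are given as log2 difference ± standard error with n = 2 arrays per group. In RNA of sorted cells, fewer cells of a type and less RNA per cell cannot be told apart.

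Most cell division genes read lower in both GFP sorts than in the Thy1 sort, and none passed the test as higher. Against Thy1, 10 of 34 genes fell in Hb9: Mcm4, Rrm2, Ccnd1, Mki67, Top2a, Cdk1, Aurkb, Cenpa, Kif20a and Nusap1. In Drd4, 12 fell: Mcm4, Rrm2, Mki67, Top2a, Ccna2, Cdk1, Bub1, Birc5, Ube2c, Cenpa, Kif20a and Nusap1. Among all genes, 3.19% passed as lower and 3.52% as higher in Hb9, and 3.96% and 1.51% in Drd4. By role, the Hb9 count was 2 of 9 replication genes, 1 of 3 G1 cyclins and 7 of 22 mitosis genes, and the Drd4 count was 2, 0 and 10. The median difference in Hb9 was -0.51 over the mitosis genes and -0.35 over the replication genes, against 0.04 over all genes. In Drd4 it was -0.58 and -0.79, against 0.02. Both comparisons use the same Thy1 arrays.

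Arrays bore unequally on these counts. In Hb9 the 10 genes became 4 when Hb9 replicate 1 was left out, 3 when Hb9 replicate 2 was, 5 when Thy1 replicate 2 was and 11 when Thy1 replicate 1 was. In Drd4 the 12 genes became 6 when Thy1 replicate 2 was left out, 9 and 12 when Drd4 replicate 2 or 1 was, and 14 when Thy1 replicate 1 was. All 4 GFP arrays lay below both Thy1 arrays for 20 of 34 genes (5 replication genes, 1 G1 cyclin and 14 mitosis genes), against 9.57% of all genes.

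**Figure D1:**
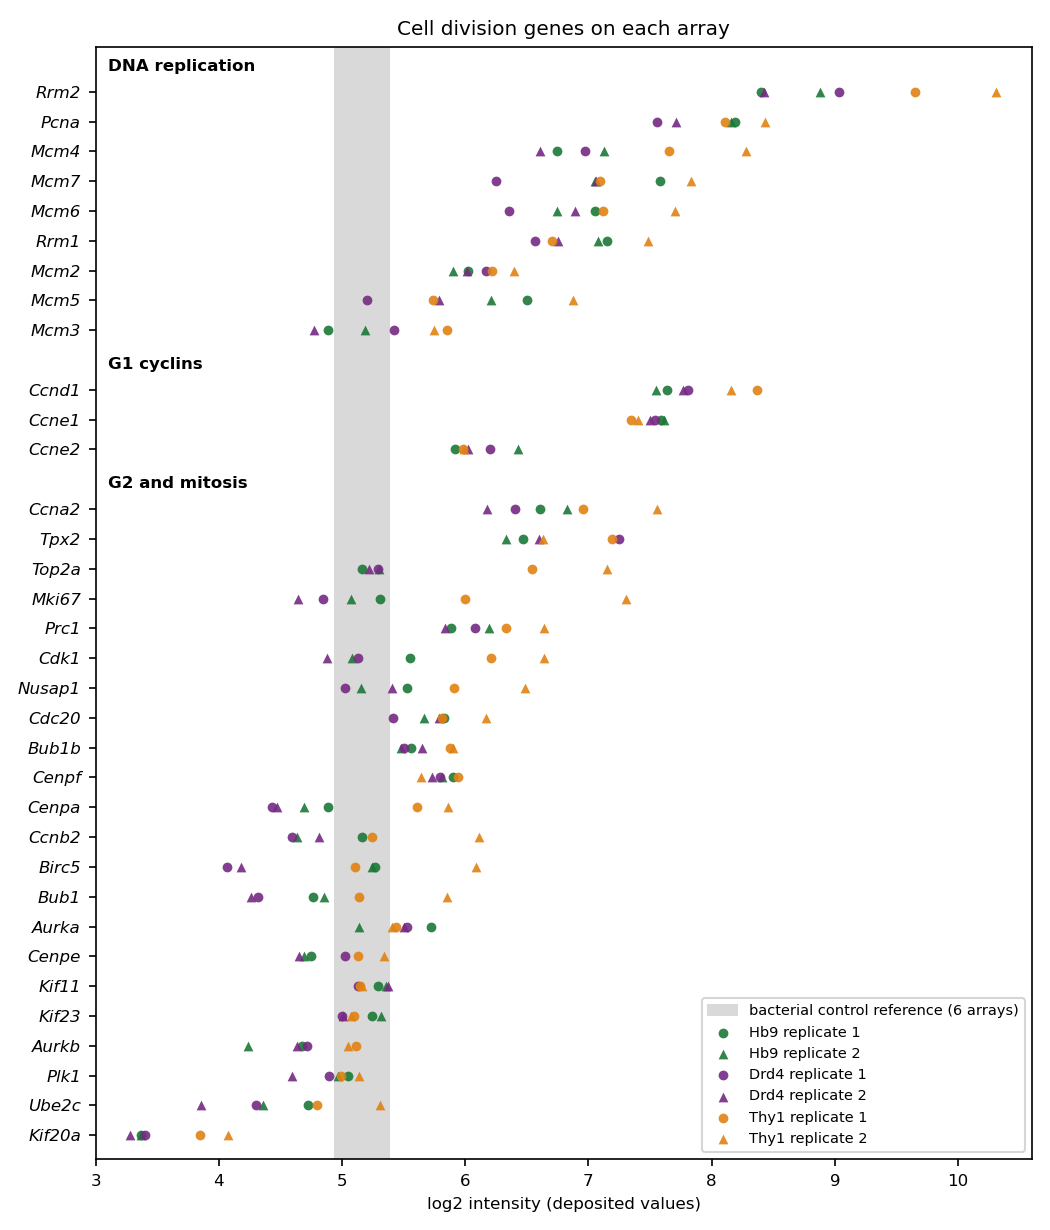
Log2 intensity of each of the 34 genes (rows) on each of the 6 arrays (points, by group), with the grey band spanning the bacterial control reference of the arrays. Of the 22 mitosis genes, 13 lie within or below the band on all 4 GFP arrays, and 3 of these (Mki67, Top2a and Cenpa) lie above it on both Thy1 arrays. Of the 9 replication genes, 7 lie above the band on all 6 arrays.

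Mitosis and replication genes differed in how far their kept probe sets stood above background. Set against each array's own reference, 6 of the 22 mitosis genes were above it on all 6 arrays (Ccna2, Bub1b, Cdc20, Cenpf, Tpx2 and Prc1), and 2, Aurkb and Kif20a, were above it on none. Of the 9 replication genes, 8 were above it on all arrays, and Mcm3 on 3. The sets kept for Mcm3, Mcm4, Mcm5, Mcm6 and Rrm2 have names ending in _x_at, a kind that can cross-hybridise. Among mitosis genes that holds for Aurkb. Sets not kept for Mcm2 (mean 4.27) and Mcm5 (4.39 and 4.06) were above the reference on no array. A set not of this kind for each of Mcm4, Mcm6 and Rrm2 was above it on all 6. Another such set of Rrm2 (mean 4.70) was above it on no array. On both Thy1 arrays 13 mitosis genes were above the reference, on both Drd4 arrays 10 and on both Hb9 arrays 6. A gene at or below the reference on both arrays of a group has only an upper bound there, and its fold is then given as at least the distance from the brighter mean to the reference, or to the probe set's own signal where that is higher.

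Mki67, whose Ki-67 protein coats mitotic chromosomes and is the usual stain for cycling cells, read 5.31 and 5.08 in Hb9, 4.85 and 4.64 in Drd4, and 6.00 and 7.30 in Thy1. All 4 GFP arrays were at or below the reference and both Thy1 arrays above it, but the Thy1 arrays themselves stood far apart (SD 0.92). It was at least 2.52-fold lower in Hb9 (-1.46 ± 0.33, limma adjusted p = 0.028) and at least 2.99-fold lower in Drd4 (-1.91 ± 0.33, adjusted p = 0.00626). Without Thy1 replicate 2 the differences were -0.80 and -1.25. The Hb9 call ended when Hb9 replicate 1 (adjusted p = 0.0916) or 2 (0.115) was left out and with robust moderation (0.0802), while the Drd4 call passed in every alternative run.

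Top2a, the topoisomerase that untangles sister chromatids, read 5.17 and 5.30 in Hb9, 5.29 and 5.22 in Drd4, and 6.54 and 7.15 in Thy1. The GFP arrays sat close together near the reference, with 1 of 2 Hb9 arrays and both Drd4 arrays above it, and both Thy1 arrays were well above them. The fall was 3.06-fold in Hb9 (-1.61 ± 0.19, limma adjusted p = 0.00181) and 3.02-fold in Drd4 (-1.59 ± 0.19, adjusted p = 0.00079), and it passed in every alternative run. Its dimmest probe set was above the reference on no array. The remaining set was above it on 3 arrays, both Drd4 arrays among them. When every probe set was fitted, that set differed by -0.27 ± 0.18 in Hb9 and 0.05 ± 0.18 in Drd4 without passing (limma adjusted p = 0.424 and 0.957). The mean over all 3 sets differed by -0.65 in Hb9 and -0.52 in Drd4.

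Cdk1, the kinase that drives entry into mitosis, read 5.55 and 5.08 in Hb9, 5.13 and 4.88 in Drd4, and 6.21 and 6.64 in Thy1. Both Thy1 arrays lay above all GFP arrays, the GFP groups overlapped each other, and 1 of 2 arrays of each GFP group was above the reference. It was 2.15-fold lower in Hb9 (-1.10 ± 0.20, limma adjusted p = 0.0118; 0.0736 without Hb9 replicate 2) and 2.67-fold lower in Drd4 (-1.42 ± 0.20, adjusted p = 0.00205).

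The cyclins that partner Cdk1 read less evenly. Ccna2, cyclin A2, read 6.60 and 6.83 in Hb9, 6.40 and 6.17 in Drd4, and 6.95 and 7.56 in Thy1. All arrays were above the reference, and the difference was -0.97 ± 0.21 in Drd4 (1.96-fold lower, limma adjusted p = 0.0223) and -0.54 ± 0.21 in Hb9 (adjusted p = 0.155). Leaving out Drd4 replicate 2 ended the Drd4 call (adjusted p = 0.0987), as did leaving out Thy1 replicate 2 (0.141). Ccnb2, cyclin B2, read 5.16 and 4.63 in Hb9, 4.59 and 4.81 in Drd4, and 5.24 and 6.11 in Thy1, with the GFP arrays all at or below the reference. Its differences of -0.78 ± 0.26 and -0.98 ± 0.26 missed the threshold (adjusted p = 0.109 and 0.0663) and passed without Thy1 replicate 1 (0.0317 and 0.00948).

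Among centromere genes Cenpa, the histone H3 variant that marks the centromere, read 4.89 and 4.69 in Hb9, 4.43 and 4.47 in Drd4, and 5.61 and 5.86 in Thy1. The GFP arrays were all at or below the reference and both Thy1 arrays above it. It was at least 1.33-fold lower in Hb9 (-0.94 ± 0.14, limma adjusted p = 0.00493) and at least 1.58-fold lower in Drd4 (-1.28 ± 0.14, adjusted p = 0.000466), and both calls passed in every alternative that tested them. With the mean of all its probe sets the differences were -0.52 and -0.53. Cenpe, a kinetochore motor, read from 4.65 to 5.34 over the arrays and differed by -0.51 in Hb9 (adjusted p = 0.0781). Cenpf, a large kinetochore protein, read between 5.64 and 5.94 with no group apart, at 0.06 in Hb9 and -0.03 in Drd4.

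The spindle checkpoint genes stood close to background, though Bub1b was above the reference on all 6 arrays. Bub1, a checkpoint kinase, read 4.76 and 4.86 in Hb9, 4.32 and 4.26 in Drd4, and 5.14 and 5.85 in Thy1, above the reference on Thy1 replicate 2 alone. It was at least 1.34-fold lower in Drd4 (-1.21 ± 0.20, limma adjusted p = 0.00516) and missed the threshold in Hb9 (-0.69 ± 0.20, adjusted p = 0.0719; 0.0493 with only the groups compared and 0.0136 without Thy1 replicate 1). The Drd4 difference was -0.80 with the mean of all probe sets and -0.79 with an offset of 16 before log2. Bub1b, which encodes the checkpoint protein BubR1, read 5.56 and 5.48 in Hb9, 5.50 and 5.65 in Drd4, and 5.88 and 5.90 in Thy1. No group overlapped Thy1, but the differences of -0.37 ± 0.13 and -0.32 ± 0.13 did not pass (adjusted p = 0.132 and 0.306).

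Genes of anaphase and its trigger gave mixed values. Cdc20, which activates the anaphase-promoting complex, read 5.83 and 5.67 in Hb9, 5.41 and 5.79 in Drd4, and 5.81 and 6.17 in Thy1, with overlap and no call. Ube2c, the ubiquitin-conjugating enzyme of that complex, read 4.72 and 4.36 in Hb9, 4.30 and 3.86 in Drd4, and 4.80 and 5.31 in Thy1. Only Thy1 replicate 2 was above the reference. The Thy1 mean did not exceed the mean Drd4 reference, so no fold is given for its fall in Drd4 (-0.97 ± 0.21, limma adjusted p = 0.0207), which was lost without Drd4 replicate 2 (0.0939) or Thy1 replicate 2 (0.16).

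The kinases that act on the spindle showed no call that stands above background. Aurka, Aurora A, read between 5.14 and 5.72 on all arrays, and its differences were 0.01 in Hb9 and 0.10 in Drd4. Plk1, the Polo kinase, read between 4.59 and 5.14, with -0.06 and -0.32. Aurkb, Aurora B, read 4.67 and 4.23 in Hb9, 4.72 and 4.64 in Drd4, and 5.11 and 5.05 in Thy1, below the reference on every array. Its Hb9 difference of -0.63 ± 0.16 passed limma (adjusted p = 0.0402) and ended in 6 alternatives, including those that leave out Hb9 replicate 2 (0.225), Thy1 replicate 1 (0.225) or Thy1 replicate 2 (0.0861).

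Of the genes for spindle motors and spindle proteins, Nusap1, which bundles spindle microtubules, read 5.53 and 5.15 in Hb9, 5.03 and 5.41 in Drd4, and 5.91 and 6.48 in Thy1. All GFP arrays were below both Thy1 arrays. It was 1.81-fold lower in Hb9 (-0.85 ± 0.22, limma adjusted p = 0.0447) and 1.97-fold lower in Drd4 (-0.98 ± 0.22, adjusted p = 0.0265). The Hb9 call was lost without Hb9 replicate 1 (0.0837) or 2 (0.208) or Thy1 replicate 2 (0.162) and with quantile normalisation (0.0712), and the Drd4 call without Drd4 replicate 1 (0.105) or Thy1 replicate 2 (0.183). With the mean of all its probe sets the differences were -0.33 and -0.49, and neither passed (0.168 and 0.076).

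Kif20a, a kinesin of cytokinesis, read 3.37 and 3.37 in Hb9, 3.40 and 3.28 in Drd4, and 3.85 and 4.08 in Thy1. It passed in Hb9 (-0.59 ± 0.12, limma adjusted p = 0.0193) and in Drd4 (-0.63 ± 0.12, adjusted p = 0.0124), although every array was below the reference, so no fold is given. The Hb9 call was lost without Hb9 replicate 1 (0.108) or 2 (0.0809) or Thy1 replicate 2 (0.0836), and the Drd4 call without Drd4 replicate 2 (0.0611) or Thy1 replicate 2 (0.115). The motors Kif11, which pushes the spindle poles apart, and Kif23, of the central spindle, gave differences between -0.08 and 0.20, and neither passed.

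Prc1, which holds the central spindle together, read 5.89 and 6.19 in Hb9, 6.08 and 5.84 in Drd4, and 6.33 and 6.64 in Thy1. Its groups did not overlap Thy1, but -0.45 and -0.53 did not pass (limma adjusted p = 0.160 and 0.151). Tpx2, which activates Aurora A, read 6.47 and 6.33 in Hb9, 7.25 and 6.60 in Drd4, and 7.19 and 6.63 in Thy1. The Drd4 arrays spanned both Thy1 arrays, and Hb9 was below both without a call (-0.51, adjusted p = 0.24).

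Birc5, the survivin gene of the chromosomal passenger complex, was the only member to pass between the GFP groups. Of all genes, 4.06% passed as higher in Hb9 than in Drd4, and the Birc5 call did not hold in every alternative run. Birc5 read 5.27 and 5.24 in Hb9, 4.06 and 4.18 in Drd4, and 5.10 and 6.09 in Thy1, above the reference on Thy1 replicate 2 alone. In Drd4 it was at least 1.44-fold lower than in Thy1 (-1.47 ± 0.25, limma adjusted p = 0.00626; -0.98 without Thy1 replicate 2, adjusted p = 0.00941; -0.96 with an offset of 16). In Hb9 the difference was -0.34 ± 0.25 (adjusted p = 0.476), and it passed without Thy1 replicate 1 (-0.83, adjusted p = 0.0372).

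**Figure D2:**
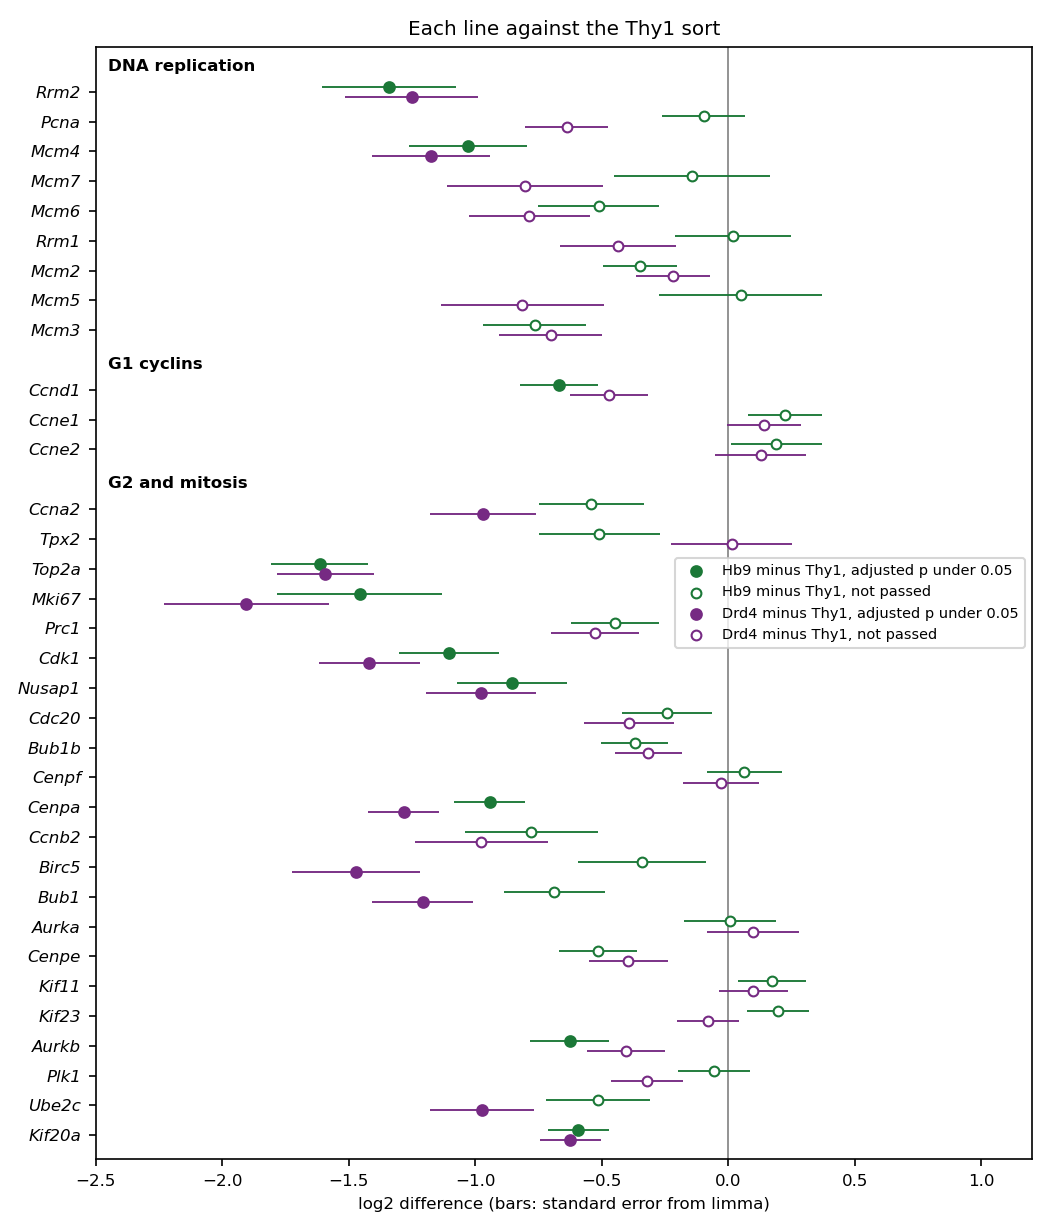
Log2 difference from Thy1 of each gene in Hb9 and in Drd4 (points, with bars of 1 standard error from limma), filled where the adjusted p was under 0.05. Top2a and Mki67 lie farthest below 0 in both groups, and the 2 replication genes that passed are Mcm4 and Rrm2.

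Replication genes were brighter against background by their kept probe sets, and only those for Mcm4 and the small subunit of ribonucleotide reductase passed. Rrm2, that subunit, whose level follows S phase, read 8.40 and 8.88 in Hb9, 9.03 and 8.43 in Drd4, and 9.65 and 10.31 in Thy1. Both Thy1 arrays lay above all GFP arrays, and the GFP groups overlapped each other. It was 2.53-fold lower in Hb9 (-1.34 ± 0.26, limma adjusted p = 0.0163) and 2.38-fold lower in Drd4 (-1.25 ± 0.26, adjusted p = 0.0202). The Hb9 call was lost without Hb9 replicate 1 (0.125) or Thy1 replicate 2 (0.0619), and the Drd4 call without Drd4 replicate 2 (0.0949) or Thy1 replicate 2 (0.144). With the mean of its 3 probe sets the differences were -0.62 and -0.68, and neither passed (0.0805 and 0.0756). Rrm1, the large subunit, read 7.15 and 7.08 in Hb9, 6.56 and 6.75 in Drd4, and 6.71 and 7.48 in Thy1, where the Thy1 arrays lay on either side of Hb9 and no call was made (0.02 ± 0.23 and -0.44 ± 0.23).

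Mcm4 read 6.74 and 7.13 in Hb9, 6.97 and 6.60 in Drd4, and 7.65 and 8.28 in Thy1, and the groups did not overlap Thy1. It was 2.04-fold lower in Hb9 (-1.03 ± 0.23, limma adjusted p = 0.029) and 2.26-fold lower in Drd4 (-1.18 ± 0.23, adjusted p = 0.0145). The Hb9 call was lost without Hb9 replicate 1 (0.208) or 2 (0.0548) or Thy1 replicate 2 (0.103), and the Drd4 call without Drd4 replicate 2 (0.0697) or Thy1 replicate 2 (0.0986). The probe sets kept for Mcm4 and Rrm2 are of the kind whose names end in _x_at, which can cross-hybridise to related sequence.

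No other helicase subunit passed over all arrays. Mcm2 read 6.02 and 5.90 in Hb9, 6.17 and 6.01 in Drd4, and 6.22 and 6.40 in Thy1 (-0.35 and -0.22, no call). Mcm3 read 4.89 and 5.18 in Hb9, 5.42 and 4.77 in Drd4, and 5.85 and 5.75 in Thy1. Both of its differences lay close to the threshold without passing (-0.76 ± 0.20, limma adjusted p = 0.0534, and -0.70 ± 0.20, adjusted p = 0.0934), and the Hb9 call was made in 5 alternatives, among them the mean of all its probe sets (0.0224). The Drd4 call was made without Drd4 replicate 1 (-1.03, adjusted p = 0.00441).

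Mcm5 read 6.50 and 6.21 in Hb9, 5.20 and 5.79 in Drd4, and 5.74 and 6.88 in Thy1. The Thy1 arrays spanned both Hb9 arrays. Mcm6 read 7.05 and 6.74, 6.35 and 6.90, and 7.12 and 7.70 in that order of groups, and Mcm7 read 7.58 and 7.06, 6.25 and 7.06, and 7.09 and 7.83. Drd4 differed from Thy1 by -0.81 ± 0.32, -0.79 ± 0.24 and -0.80 ± 0.31 in these 3 genes, without a call. Mcm5 passed without Thy1 replicate 1 (-1.38, limma adjusted p = 0.0175), and Mcm6 (-1.06, 0.038) and Mcm7 (-1.21, 0.044) without Drd4 replicate 2.

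Pcna, the clamp that also serves DNA repair in cells that do not divide, read 8.19 and 8.16 in Hb9, 7.56 and 7.71 in Drd4, and 8.11 and 8.43 in Thy1. Hb9 lay within the Thy1 arrays (-0.10 ± 0.17), and Drd4 lay below both without passing (-0.64 ± 0.17, limma adjusted p = 0.0554). It passed in Drd4 in 4 alternatives, namely quantile normalisation (0.0283), the mean of all probe sets (0.0361), no intensity trend (0.0399) and robust moderation (0.0497).

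The 3 G1 cyclins were above the reference on every array and did not move together. Ccnd1, cyclin D1, read 7.64 and 7.55 in Hb9, 7.81 and 7.77 in Drd4, and 8.36 and 8.15 in Thy1. It was 1.59-fold lower in Hb9 (-0.67 ± 0.15, limma adjusted p = 0.0307), a call lost without Hb9 replicate 1 (0.154) or 2 (0.161) or Thy1 replicate 1 (0.208). In Drd4 it differed by -0.47 ± 0.15 (adjusted p = 0.145), and by -0.64 with the mean of all probe sets, which passed (0.0236). Ccne1, cyclin E1, read 7.59 and 7.61 in Hb9, 7.54 and 7.50 in Drd4, and 7.35 and 7.41 in Thy1, so every GFP array was above both Thy1 arrays. The differences of 0.22 and 0.14 did not pass. Ccne2, cyclin E2, read from 5.92 to 6.43 over all arrays with no call.

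Between the GFP groups, Birc5 alone of 34 genes passed, higher in Hb9 by 1.13 ± 0.25 (limma adjusted p = 0.0275), and none passed as lower. Of all genes, 4.06% were higher and 2.06% lower in Hb9 than in Drd4. Both groups were at or below the reference for Birc5, so no fold is given. The call was lost without Hb9 replicate 1 (0.125), Hb9 replicate 2 (0.0957) or Drd4 replicate 1 (0.0745). The median Hb9 minus Drd4 difference was 0.27 over the replication genes and 0.14 over the mitosis genes, against 0.04 over all genes. Of the 34 genes, 24 were above 0 and 10 below it, where 43.57% of all genes lay below 0. Among replication genes Mcm5 (0.86 ± 0.32, adjusted p = 0.164), Mcm7 (0.66 ± 0.31, 0.272), Pcna (0.54 ± 0.17, 0.0919) and Rrm1 (0.45 ± 0.23, 0.314) read higher in Hb9 without passing, and Mcm4 (0.15) and Rrm2 (-0.09) lay near 0.

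The array carries 78 probe sets for these genes, of which 44 were not kept because another of the same gene was brighter, and 25 were above the reference on no array. All 34945 probe sets with a single gene were also fitted, an alternative chosen after the data were seen. In that fit 13 member probe sets of 13 genes fell in Hb9 and 18 of 16 genes in Drd4, and none rose. The share of all probe sets that passed in that fit is not given here, so these counts have no background beside them. Some genes passed only through a probe set that was not kept. Mcm3 was lower by a probe set that read 4.51 and 4.32 in Hb9, 4.89 and 4.46 in Drd4, and 5.60 and 5.65 in Thy1 (-1.21 ± 0.16 and -0.95 ± 0.16, limma adjusted p = 0.002 and 0.007). Kif11 was lower by a probe set that was below the reference on every array (-0.75 and -0.73). Cenpe fell in Hb9 by such a set (-0.72 ± 0.17). Cenpf (-0.66 ± 0.16) and Cdc20 (-1.74 ± 0.38) fell in Drd4 by sets that were above the reference on 3 arrays. The Cdc20 set is of the _x_at kind, which can cross-hybridise. The other Cdc20 set not kept, also of that kind, differed by 0.13 ± 0.17 in Drd4 without passing. The probe sets of a gene thus did not always give the same call. Second sets of Mcm4 (-0.73 ± 0.17, adjusted p = 0.036) and Rrm2 (-0.80 ± 0.19, 0.038), not of the _x_at kind, also fell in Drd4. In Hb9 they differed by -0.47 and -0.42 without passing. The remaining Rrm2 set, also not of that kind, was above the reference on no array. It differed by -0.11 ± 0.14 in Hb9 and 0.005 ± 0.14 in Drd4 without passing.

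**Figure D3:**
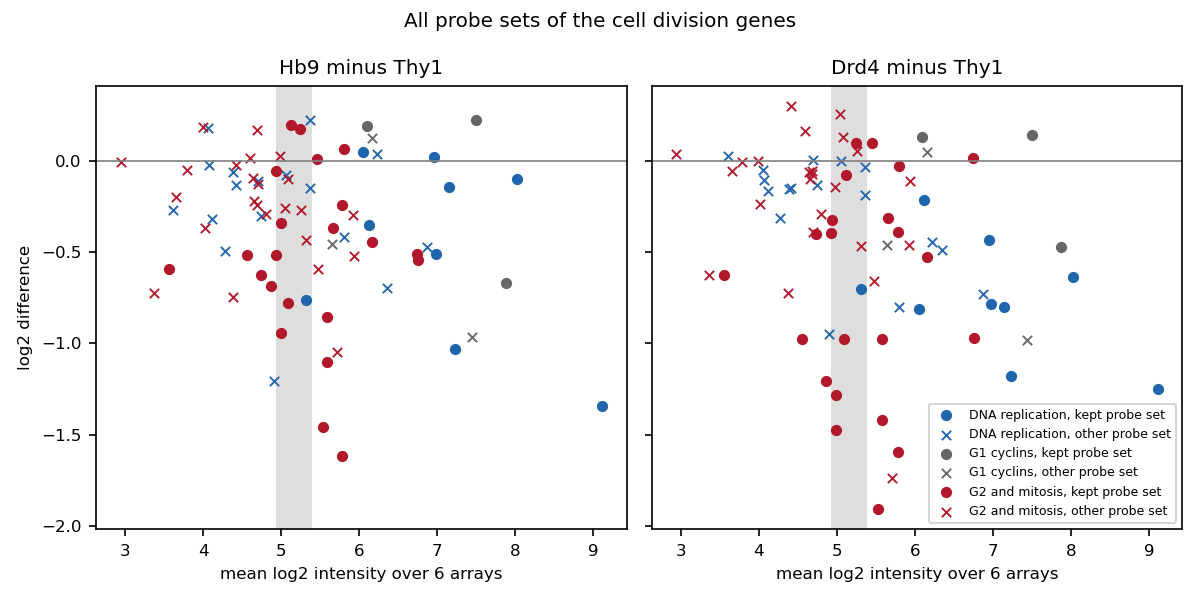
Mean log2 intensity over 6 arrays of each of the 78 member probe sets (x) against its log2 difference from Thy1 (y), for Hb9 and for Drd4. Colours mark the roles and symbols mark kept and other probe sets, and calls are not marked. When every probe set was fitted, no member probe set passed above 0. Those that passed reach down to means below the reference.

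Other genes of the same pathways were taken from fixed lists with no member in common. Of 44 other mitosis genes, 4 fell in Hb9 and 9 in Drd4, none rose, and the medians were -0.11 and -0.25. Over all genes, 3.19% fell in Hb9 and 3.96% in Drd4. Cep55, which recruits the machinery of abscission, read 5.69 and 5.48 in Hb9, 5.31 and 4.91 in Drd4, and 6.63 and 7.43 in Thy1 (-1.44 ± 0.24 and -1.92 ± 0.24, limma adjusted p = 0.00898 and 0.0011). Sgo2a, a protector of centromere cohesion (-0.76 ± 0.15 in Hb9 and -0.97 ± 0.15 in Drd4), and the kinetochore gene Nuf2 (-0.74 ± 0.18 and -0.94 ± 0.18) fell in both groups. Cks2, a small partner of Cdk1, fell in Drd4 (-1.14 ± 0.20) and differed by -0.08 in Hb9. The kinetochore gene Spc25 fell in Drd4 (-0.97 ± 0.24) and differed by -0.44 in Hb9 without passing. The Hb9 count of 4 was 7 with only the groups compared and 8 with every probe set fitted. With Hb9 replicate 1 or Thy1 replicate 2 left out 1 gene fell in Hb9, and with Hb9 replicate 2 left out 0; the Drd4 count was 5 without Drd4 replicate 2 and 3 without Thy1 replicate 2. Between the GFP groups 4.06% of all genes were higher and 2.06% lower in Hb9. In Hb9 against Drd4, Cks2 (1.07 ± 0.20), the condensin gene Smc4 (0.84 ± 0.18) and Ect2, which sets the cleavage furrow (0.63 ± 0.14), were higher and none lower. That count of 3 was 0 without Hb9 replicate 1 and 1 without Hb9 replicate 2.

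Of 37 other measured replication genes, 1 fell and 0 rose in Hb9, and 1 fell and 1 rose in Drd4, with medians of 0.02 and -0.13. These counts were close to the shares over all genes, 3.19% lower and 3.52% higher in Hb9, and 3.96% and 1.51% in Drd4. Uhrf1, which carries DNA methylation through replication, read 4.85 and 5.38 in Hb9, 4.86 and 4.55 in Drd4, and 7.04 and 7.63 in Thy1. It fell by 2.22 in Hb9 on the log2 scale (SE 0.23, limma adjusted p = 0.000973), and was at least 4.80-fold lower in Drd4 (-2.63 ± 0.23, adjusted p = 0.000132). Cdc7, the kinase that fires origins, went the other way, at 8.58 and 8.83 in Hb9, 9.02 and 9.27 in Drd4, and 7.56 and 8.40 in Thy1 (1.17 ± 0.25 in Drd4, adjusted p = 0.0211). Without Thy1 replicate 2, 2 genes rose and 1 fell in Hb9, and without Drd4 replicate 2 or Thy1 replicate 1 no gene rose in Drd4. Between the GFP groups 4.06% of all genes passed as higher in Hb9, and the share in this list was near that. Rfc4, of the clamp loader (0.79 ± 0.18), and Prim2, of primase (0.58 ± 0.14), were higher in Hb9 than in Drd4. That count of 2 fell to 0 without either Hb9 replicate or Drd4 replicate 1 and to 1 without Drd4 replicate 2.

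Of 20 other genes of G1 and its inhibitors, 4 fell in each GFP group and none rose. Over all genes, 3.19% fell in Hb9 and 3.96% in Drd4. Ccnd2, cyclin D2, read 5.09 and 5.38 in Hb9, 4.64 and 4.61 in Drd4, and 6.56 and 7.41 in Thy1. The GFP arrays were near or below the reference, and the difference was -1.75 ± 0.24 in Hb9 (limma adjusted p = 0.00319) and at least 3.77-fold in Drd4 (-2.36 ± 0.24, adjusted p = 0.000274). Cdkn1c, an inhibitor of the cycle that newly postmitotic cells express, fell as well, at 5.07 and 4.88 in Hb9, 4.48 and 4.77 in Drd4, and 5.63 and 5.67 in Thy1, and was at least 1.26-fold lower in Hb9 and at least 1.495-fold lower in Drd4 (limma adjusted p = 0.0238 and 0.00205). Cdkn2c, an inhibitor of the cyclin D kinases, fell in both groups (-0.61 ± 0.14 and -0.70 ± 0.14). Cdk6, itself such a kinase, fell in Drd4 (-0.91 ± 0.21) and differed by -0.72 ± 0.21 in Hb9 without passing. The Hb9 count was 1 without either Hb9 replicate or Thy1 replicate 1 and 2 without Thy1 replicate 2, and the Drd4 count was 2 without Drd4 replicate 1 or Thy1 replicate 1.

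The Thy1 arrays themselves differed. Thy1 replicate 2 read higher than replicate 1 for 27 of 34 members (8 of 9 replication genes and 17 of 22 mitosis genes), against 52.3% of all genes. The median of that difference was 0.62 over the replication genes, 0.28 over the mitosis genes and 0.02 over all genes. Summed over the 22 mitosis genes, intensity was 961 and 901 in Hb9, 897 and 824 in Drd4, and 1231 and 1588 in Thy1. Summed over the 9 replication genes it was 1387 and 1442, 1242 and 1158, and 1849 and 2791 in the same order. Both Thy1 arrays were above all GFP arrays in both sums. Rrm2 made up 806 and 1265 of the replication sum on the Thy1 arrays; without it the sums were 1050 and 971 in Hb9, 719 and 814 in Drd4, and 1043 and 1526 in Thy1, so that Thy1 replicate 1 no longer lay above Hb9 replicate 1.

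Markers of cells that can still divide moved with these groups. The 14 microglial genes summed to 1833 and 2286 in Hb9, 3248 and 1141 in Drd4, and 12540 and 7326 in Thy1, and 12 of 14 fell in each GFP group (6 in Hb9 with robust moderation, 7 without Hb9 replicate 1 and 5 without Thy1 replicate 1). Of these genes 13 of 14 were above the reference on at least 1 Thy1 array, and Itgam on none. The 14 pericyte and endothelial genes summed to 2250 and 1867, 1478 and 578, and 8358 and 9237, with 5 lower in Hb9 and 6 in Drd4 (in Hb9 3 without either Hb9 replicate and 2 without Thy1 replicate 1, and 3 in each with robust moderation). Pdgfrb, Abcc9, Kcnj8 and Notch3, known from pericytes, and Flt1, known from endothelium (-0.98 ± 0.17 and -1.06 ± 0.17), fell in both groups, and the pericyte gene Rgs5 fell in Drd4. Cspg4 (-0.52 ± 0.14 and -0.48 ± 0.14) and Anpep (-0.12 ± 0.17 and 0.07 ± 0.17), also known from pericytes, passed in neither group. Cspg4 was above the reference on all 6 arrays and Anpep on none. Of the other endothelial genes, Kdr and Egfl7 were above the reference on all 6 arrays without a call, and Pecam1, Tek and Cldn5 were at or below it on all 6. Between the Thy1 arrays the microglial sum was higher on replicate 1, and the pericyte and endothelial, mitosis and replication sums were higher on replicate 2. Rgs5 was the brightest pericyte and endothelial gene on all arrays but Drd4 replicate 2, so it weighed most in that list's linear sum. It read 10.47 and 10.06 in Hb9, 9.50 and 5.01 in Drd4, and 12.39 and 12.58 in Thy1. Its Hb9 difference did not pass (-2.22 ± 1.02, limma adjusted p = 0.227). On Drd4 replicate 2 the pericyte and endothelial sum was 578 against 1478 on replicate 1, and the mitosis sum was 824 against 897. The part of these cells in the cell division result was not tested.

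The summed retinal progenitor markers turned on a single gene. The 13 measured genes summed to 2270 and 1955 in Hb9, 2050 and 2342 in Drd4, and 1468 and 1795 in Thy1, a sum that is mostly Pax6, which ganglion cells also express. Without Pax6 the other 12 summed to 524 and 482 in Hb9, 503 and 480 in Drd4, and 636 and 642 in Thy1, with both Thy1 arrays above all GFP arrays. Of the 13 genes, 9 read below Thy1 in Hb9 and 12 in Drd4, against 43.03% and 45.79% of all genes. The median difference over the 13 was -0.16 and -0.20. Hes1, Nes, Sfrp2, Notch1 and Pax6 were above the reference on all 6 arrays, Sox9 was above it on both Thy1 arrays, and Sox2, Lhx2 and Rax were at or below it on all 6. The part of progenitors in the cell division result was not tested. Id3 and Notch1 fell in Hb9 and Id3 in Drd4, and Pax6 rose in both (0.71 ± 0.18 and 0.79 ± 0.18, limma adjusted p = 0.0409 and 0.0266). These 3 calls in Hb9 became 1 with Hb9 replicate 1 or Thy1 replicate 1 left out and 0 with Hb9 replicate 2 left out, and the 2 in Drd4 became 1 with Drd4 replicate 2 or Thy1 replicate 1 left out. Of 8 Muller glia genes, Apoe and Vim fell in both GFP groups and Dkk3 rose in Drd4, with sums of 2539 and 2401, 3063 and 2631, and 3591 and 3718 (1 lower in Hb9 with Thy1 replicate 1 left out). Of 6 astrocyte genes, none fell in Hb9 and 1, Pdgfra, fell in Drd4 (0 without Drd4 replicate 2 or Thy1 replicate 2), with sums between 193 and 250 over the arrays. The 13 measured ganglion cell genes summed to 36090 and 35030 in Hb9, 34060 and 33160 in Drd4, and 31860 and 31990 in Thy1, so both Thy1 arrays lay below all GFP arrays. Nefm, a neurofilament gene, rose in both GFP groups (0.57 ± 0.12 and 0.67 ± 0.12), and Isl1, a transcription factor of ganglion cells, fell in Drd4 (-1.74 ± 0.12). Pou4f3 (0.77 ± 0.19) and Thy1 itself (0.52 ± 0.10) rose in Drd4. Nefm was the list's single call in Hb9, and it ended with Hb9 replicate 1 or either Thy1 replicate left out and with quantile normalisation; the 4 calls in Drd4 became 2 with Drd4 replicate 2 or Thy1 replicate 1 left out. Of these genes, 12 were above the reference on at least 1 array of every group.

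**Figure D4:**
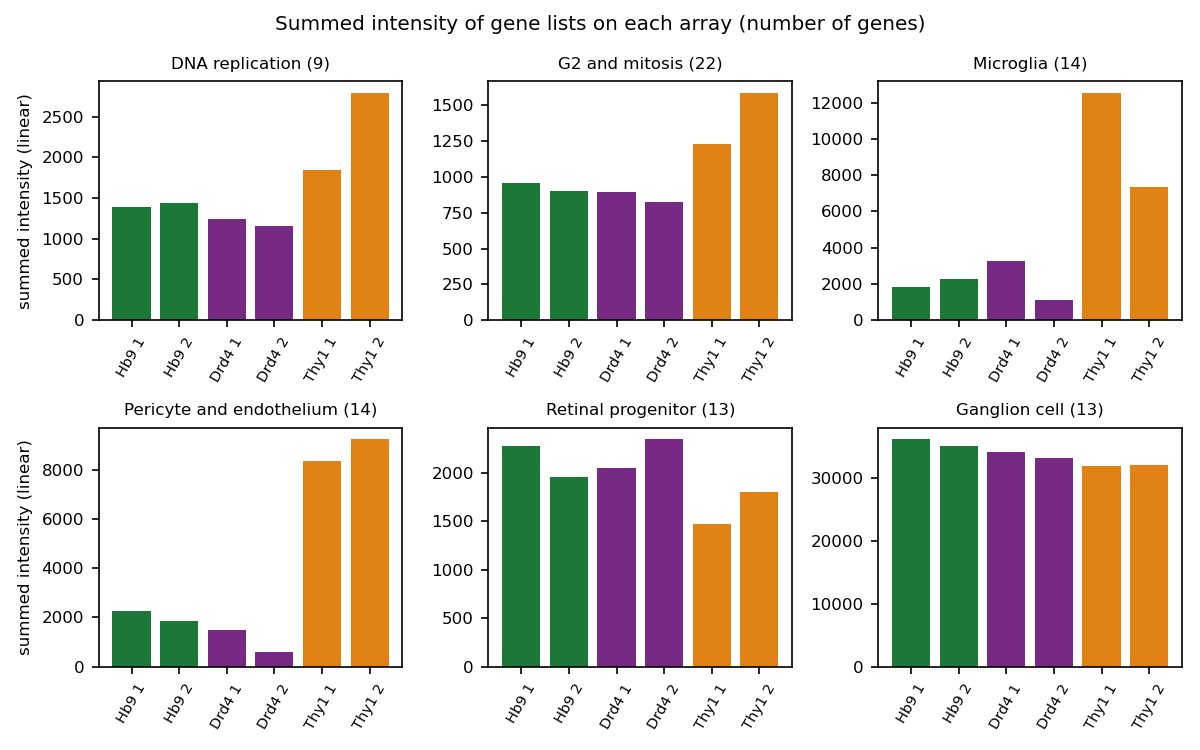
Summed intensity of the mitosis genes, the replication genes and 4 marker lists on each of the 6 arrays (bars from 0, by group). The mitosis and replication sums are highest on Thy1 replicate 2 (1588 and 2791), and the microglial sum is highest on Thy1 replicate 1 (12540).

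The genes most alike in pattern to the mean of the 13 mitosis genes above the reference on both Thy1 arrays were taken by Pearson correlation over the 6 arrays, as a description. These 13 were taken for their level in Thy1, so a mean that is high there, and genes alike to it, follow in part from that choice. That mean was 5.66 and 5.49 in Hb9, 5.48 and 5.44 in Drd4, and 6.08 and 6.42 in Thy1. The 5 non-members with the highest r were Gnb4 (0.998), Lama2 (0.998), Heatr5a (0.996), Acta2 (0.996) and Dock8 (0.989). Acta2, smooth muscle actin, read 6.81 and 6.51 in Hb9, 6.51 and 6.18 in Drd4, and 7.81 and 8.64 in Thy1. The 6 arrays share 3 groups, so a high r rests largely on the contrast with Thy1 and on the gap between the Thy1 arrays.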

How the data were processed

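The deposited intensities are on a linear scale, 1 per probe set and array; the authors' software, background correction and normalisation are not given in the sources used. Sample labels state papain dissociation, flow sorting and 2 rounds of amplification. Of 45101 probe sets, 34945 name 1 gene in the platform annotation, 932 several, 9160 none and 64 are controls. The brightest probe set by mean log2 over 6 arrays stood for its gene, which left 18193 genes. Limma 3.58.1 in R 4.3.3 fitted a mean per group with an intensity trend (3 residual degrees of freedom, prior 6.98), two-sided, over all genes. The procedure was tested on simulated data. With 2 arrays per group, the number of arrays limits the precision: the median standard error was 0.15.

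The members, the lists and the alternatives were chosen with earlier results of these data known. All members are described. Of other lists, up to 3 genes per comparison that passed with the largest differences were named, and up to 5 genes most alike in pattern. Some further genes of the marker lists were named as well. Promoters came from RefSeq (GRCm38.p6). Of the genes with a promoter there, up to 2 mitosis and 2 replication genes with a motif and the largest Drd4 difference are shown. Alternatives were quantile normalisation, median centring, the mean of all probe sets, dim genes left out, other moderation, array weights, an offset of 16, the replicate number as a block, only the groups compared, and each array left out in turn.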

Additional observations from a re-analysis of the deposited data

Results flagged for a closer look

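Birc5 differed between the GFP groups under the same contrast with Thy1, by a test of the difference itself. The Hb9 minus Drd4 difference was 1.13 ± 0.25 on the log2 scale (limma adjusted p = 0.0275), with both Hb9 arrays (5.27 and 5.24) above both Drd4 arrays (4.06 and 4.18). Both groups lie at or below the bacterial control reference, it is 1 of 34 members against 4.06% of all genes, and the adjusted p ranged from 0.00136 to 0.125 over the alternatives, 4 of which ended the call.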

How the results depend on the processing

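No result changed sign with a call. In Hb9 against Thy1 the count of 10 members ranged from 3 to 11 with each array left out in turn, the mitosis count of 7 from 2 to 9 and the replication count of 2 from 0 to 2; with dim genes left out the mitosis count was 4. With 3 alternatives (array weights, an offset of 16, robust moderation), and with only the groups compared or every probe set fitted, the replication count was 3. In Drd4 against Thy1 the 12 members ranged from 6 to 14, the 10 mitosis genes from 6 to 11 and the 2 replication genes from 0 to 3 with an array left out. With dim genes left out these were 7 members and 5 mitosis genes, with every probe set fitted 16 and 13, and the replication count was 3 with quantile normalisation, no intensity trend, robust moderation or every probe set fitted. The single Hb9 against Drd4 call ranged from 0 to 1 with an array left out and was 0 with dim genes left out or an offset of 16. With only the groups compared it became 3, of which 2 were mitosis genes and 1 a replication gene. No label says that a replicate number marks a litter shared between groups. Deviations of same-numbered arrays correlated at -0.28 (Hb9 and Drd4), -0.19 (Hb9 and Thy1) and 0.37 (Drd4 and Thy1). With 2 arrays per group these values cannot settle whether such arrays share more than a number. With the number as a block the counts were 10, 12 and 1, the same genes. Signal over background limits the mitosis genes, of which 6 of 22 lie above the reference on all arrays.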
